A study of Homo sapiens with 2 samples.

Results

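To investigate where NUDT21 contacts the transcripts of genes that drive T-cell leukemia, 10 genes were followed through a deposited list of NUDT21 eCLIP peaks: NOTCH1, MYC, MYB, BCL2, RUNX1, GATA3, TAL1, LMO2, BCL11B and TCF7. A peak was counted for a gene when its midpoint lay between the start and the end of that gene in GENCODE 44 (hg38). Of 20499 peaks in the list, 90 met this rule. The series held 1 library made with a NUDT21 antibody and 1 input library, both from J-Gamma1, an established human T-ALL (T-cell acute lymphoblastic leukemia) line derived from Jurkat, whose cells were irradiated with UV-C light before lysis. The peaks came from the antibody library, and the input library was not analysed here. With 1 antibody library from 1 line there was no replicate, so no test between genes or regions was possible and all values describe this library.

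NUDT21 is the small subunit of cleavage factor I, a complex that binds UGUA in nascent RNA and takes part in the choice between poly(A) sites, and so in the length of the 3'UTR that a mRNA carries. In T-ALL, the Notch receptor NOTCH1 is often activated by mutation, and the transcription factors TAL1, RUNX1, GATA3 and MYB with the cofactor LMO2 form a core regulatory circuit. MYC is a growth-promoting target of NOTCH1, BCL2 blocks apoptosis, and BCL11B and TCF7 direct early T-cell development.

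The peaks were spread over 9 of the 10 genes, while 33.4% of 19383 protein-coding genes held a peak. The latter share was 17.7% for genes under 20 kb and 40.4% to 49.4% in the length classes above. RUNX1 alone held 50 peaks (55.6%) and NOTCH1 24 (26.7%), which left 16 peaks for the other 8 genes. BCL11B held 6 peaks, MYB, BCL2, GATA3 and TCF7 held 2 each, and MYC and LMO2 held 1 each. No peak of the list lay in TAL1. No protein-coding gene had more peaks than RUNX1, but its annotated body was also long, at 1216867 nt. Per 100 kb of gene body NOTCH1 came first with 46.5 peaks, followed by MYC with 13.3, GATA3 with 6.71, BCL11B with 5.83, TCF7 with 5.38, MYB with 5.28, RUNX1 with 4.11, LMO2 with 2.98 and BCL2 with 1.02. The abundance of each RNA was not measured in the list, and its part in these counts was not tested.

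**Figure D1:**
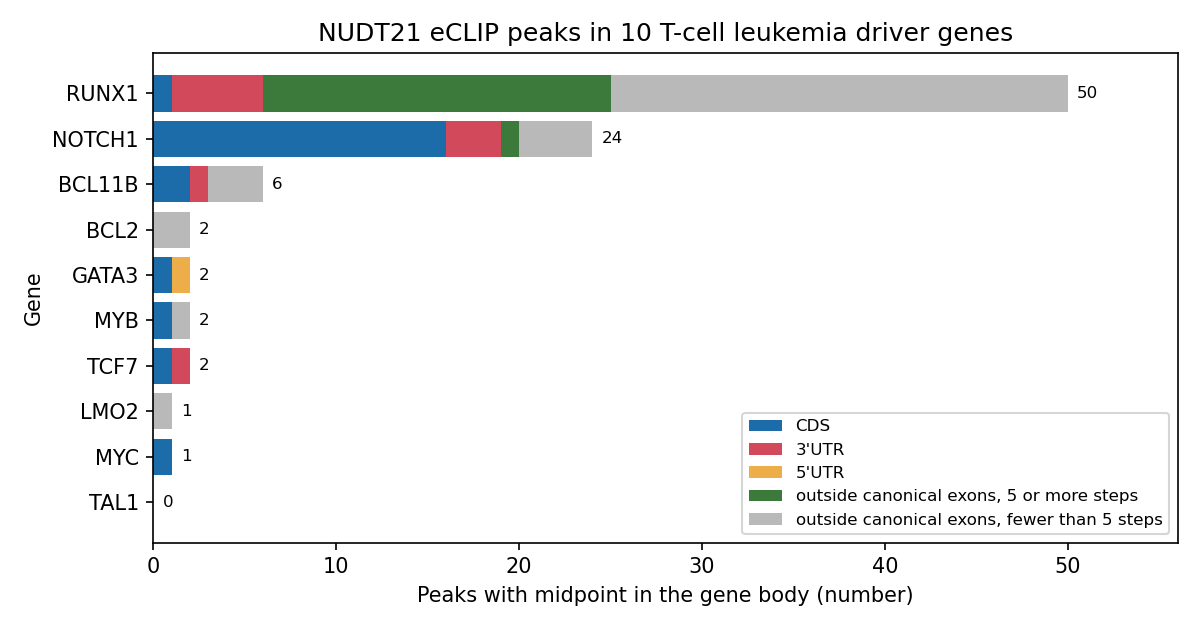
Number of NUDT21 peaks (x axis) in each of the 10 genes (y axis), coloured by the region of the canonical transcript that held the midpoint. RUNX1, with 50 peaks, was mostly covered outside its canonical exons, whereas 19 of the 24 NOTCH1 peaks lay in exons and TAL1 had 0.

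The deposited Score of a peak came in whole steps of 0.2278, and steps are used here as the measure of its height. Of the 90 peaks, 54 (60.0%, exact Clopper-Pearson 95% interval 49.1 to 70.2) reached 5 or more steps, against 45.2% of the 18659 peaks in protein-coding genes. These 54 peaks were found in 7 of the 10 genes, where 14.4% of protein-coding genes had such a peak. BCL2 and LMO2 had low peaks only. Intervals of shares cover counting error only. The false discovery rate (FDR) in the list was 1 for each of the 90 peaks. None of the 90 was thus under 0.05, and in the whole list 0.0927% were, although a q-value of 0.05 is the limit stated for the peak calling. The p-values of the 90 peaks were all under 0.05.

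NOTCH1 (chr9:136494433-136546048, minus strand) was covered mainly in exons. By its canonical transcript, 16 of 24 peaks lay in coding sequence (CDS), 3 in the 3'UTR and 5 in introns. The 19 exonic peaks fell in 10 of 34 exons. They stood between 6 and 14 steps, with a median of 9, and their fold enrichment over the local background was 1.77 to 3.46, with a median of 2.47. The last exon held 8 of them, or 2.56 per kb, against 1.71 per kb in the exons before it. Intron peaks were sparse, at 0.119 per kb. The first exonic peak, in exon 3 over codons 80 to 123, is shown whole because it touched no annotated UTR and carried no UGUA. A window from a 3'UTR peak is shown beside it because it holds the one UGUA found in an exonic NOTCH1 peak. UGUA is written TGTA, in capitals, since these and all later sequences are reference DNA (hg38) of the gene strand, 5′ to 3′.
NOTCH1 exon 3 peak, chr9:136523751-136523882, minus strand: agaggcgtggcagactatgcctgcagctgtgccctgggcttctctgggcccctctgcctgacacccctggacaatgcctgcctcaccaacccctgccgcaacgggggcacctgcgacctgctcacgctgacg
NOTCH1 3'UTR window, chr9:136495321-136495350, minus strand: tctttgtttcaggttcagtattaTGTAgtt

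The highest fold enrichment in NOTCH1, 3.46 at 13 steps, was that of a 73-nt peak in exon 5 (chr9:136519476-136519548), over codons 254 to 278. These early exons encode EGF-like repeats of the extracellular part. Exon 25 held 2 peaks, of 10 and 6 steps, exon 26 held 2, of 10 and 7 steps, and exon 27 held 1, of 6 steps. Exons 26 and 27 encode the heterodimerization domain, one site of activating mutations in T-ALL. A further peak of 10 steps lay in exon 31. In the last exon, 5 peaks followed each other from codon 2070 to the stop codon, with 10, 8, 8, 12 and 14 steps. The end of this stretch encodes the PEST region, which controls turnover of the activated receptor and is the other site of such mutations. The peak of 14 steps, over the stop codon (chr9:136496068-136496351), had a fold enrichment of 2.09 only. The 3'UTR peaks of 6, 10 and 9 steps had fold enrichments of 1.77, 2.64 and 2.71, and the last of them lay 270 nt from the end of the transcript. Of the 5 intron peaks, 4 lay in intron 2 at 1 or 2 steps and the remaining one, of 7 steps, lay across the splice donor of exon 18.

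RUNX1 (chr21:34787801-36004667, minus strand), a runt-domain transcription factor, held most of its peaks in introns by count. Its canonical transcript spans 261502 nt and held 49 of the 50 peaks, or 18.7 per 100 kb, with 1 peak upstream of it. By the canonical transcript 1 peak lay in CDS, 5 in the 3'UTR and 43 in introns. Per length its exons were still the denser part, with 1.00 peaks per kb of exon and 0.168 per kb of intron, as in NOTCH1 with 1.99 and 0.119. Of its 50 peaks, 25 reached 5 or more steps.

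The highest fold enrichment among all 90 peaks, 3.53 at 15 steps, belonged to the CDS peak of RUNX1 in the last exon (chr21:34792191-34792581), over codons 333 to 463 of 480. In the whole list it ranked 338. The 5 peaks of the 3'UTR lay in the same exon, with 15, 11, 14, 8 and 6 steps from its start towards its end and fold enrichments between 1.84 and 2.51. The first of these (chr21:34791749-34791877) lay 27 nt from the end of a shorter coding transcript and was the only exonic peak of the 10 genes with AAUAAA, the poly(A) signal. The last lay 1694 nt from the canonical end. UGUA was found in the CDS peak and in the last 2 of the 3'UTR, and these windows are shown as the UGUA contexts inside RUNX1 exonic peaks.
RUNX1 CDS window, chr21:34792348-34792377, minus strand: ccctcctaccaccTGTActacggcgcctcg
RUNX1 3'UTR window, chr21:34789730-34789759, minus strand: ggcttgtcactatTGTAggctcactggatt
RUNX1 3'UTR window, chr21:34789472-34789501, minus strand: cttaagccaatcaTGTAataactgcatgtg

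The highest peak of the 10 genes in steps, at 18, also lay in RUNX1 (chr21:34887992-34888061). It fell in intron 3 of the canonical transcript and in the 5'UTR of transcripts with a later start, 664 nt from the nearest such start. Its fold enrichment was 2.01, so that it ranked 223 by Score and 7771 by fold enrichment. Another peak, of 7 steps, lay in a noncoding exon 40 nt from the end of a short coding transcript (chr21:34834345-34834396).

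Introns in all transcripts held 42 RUNX1 peaks, and 17 of them reached 5 or more steps, with fold enrichments from 1.95 to 2.91 and a median of 2.41. One protein-coding gene, ARPP21, had more intron peaks of this height, 18, and RUNX1 came second. They were unevenly placed. Intron 5 held 9 peaks, 8 of them of 5 or more steps, or 4.29 per 10 kb, and intron 8 held 4, all of 6 to 8 steps, or 5.98 per 10 kb. Intron 2, of 155878 nt, held 16 peaks at 1.03 per 10 kb, and 1 of these reached 5 steps. The peak with the highest fold enrichment in an intron, 2.91 at 9 steps, held 2 UGUA and reached 94 nt into exon 8 (chr21:34799369-34799794). The next, 2.87 at 9 steps, lay deep in intron 5 and is shown as the strongest that lay wholly in an intron. A peak of 8 steps, also deep in intron 5, is shown as an example with UGUA.
RUNX1 intron 5 peak, chr21:34872244-34872291, minus strand: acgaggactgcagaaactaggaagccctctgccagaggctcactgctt
RUNX1 intron 5 peak, chr21:34875715-34875798, minus strand: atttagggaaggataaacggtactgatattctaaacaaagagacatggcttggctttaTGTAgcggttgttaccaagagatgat

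The peaks carry no strand, and a long noncoding RNA gene without a symbol, ENSG00000286153 (chr21:34836286-34884882, plus strand), runs through introns 5 and 6 of RUNX1. It took in the midpoints of 12 RUNX1 peaks, 9 of them of 5 or more steps. None of the 12 overlapped its exons, which sum to 3093 nt. UGUA was present in 4 of the 12 on the strand of RUNX1 and in 4 on the other strand. Intron peaks of RUNX1 and of this gene therefore cannot be told apart by position, whereas no other gene lay at the intron 8 peaks.

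**Figure D2:**
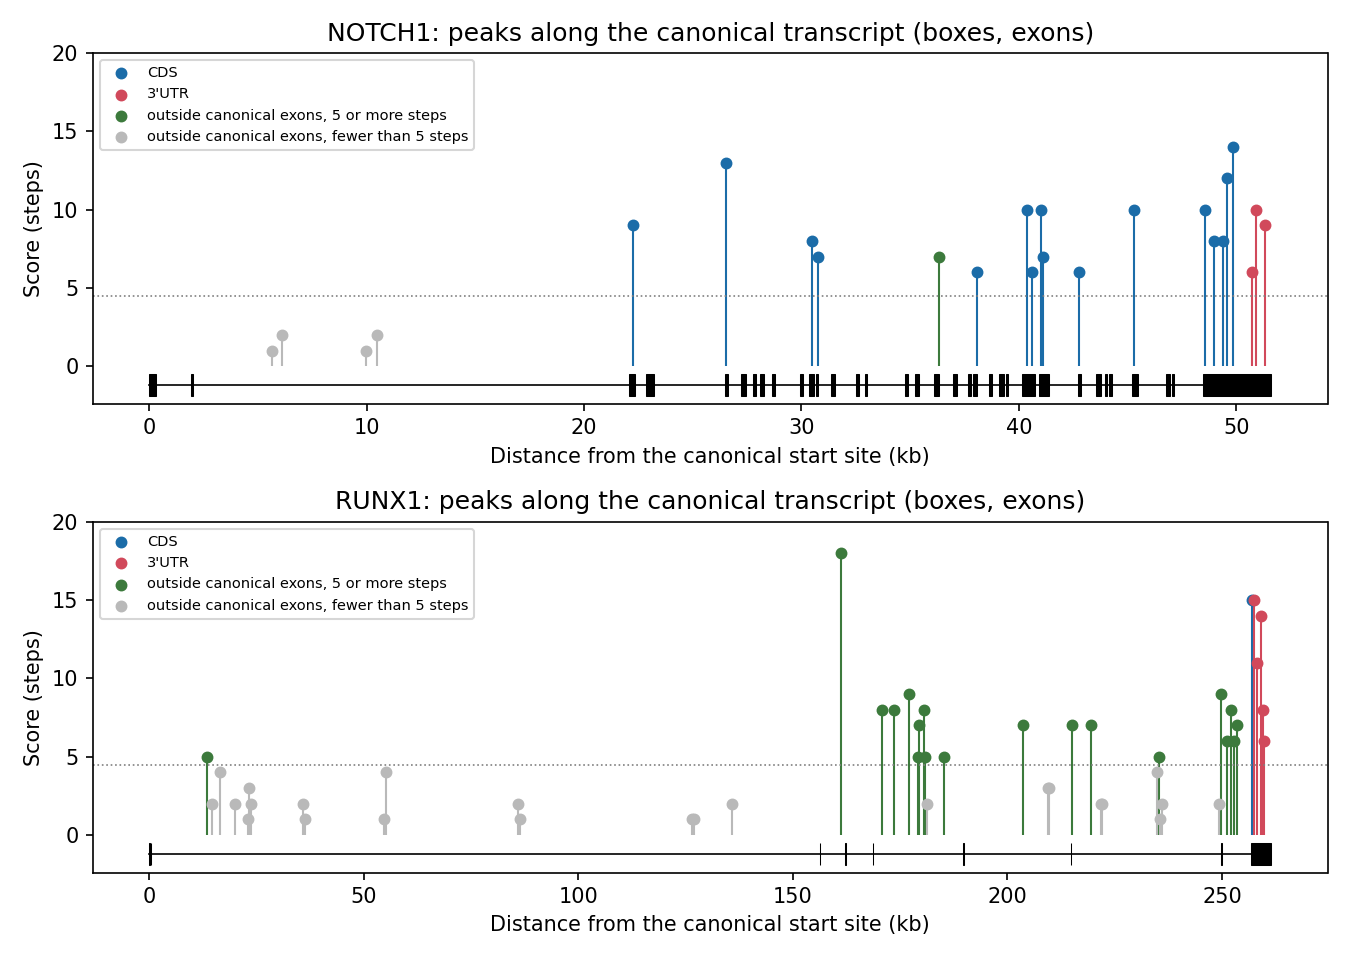
Height of each peak in steps of Score (y axis) against the distance of its midpoint from the canonical start site in kb (x axis), for NOTCH1 and RUNX1. Boxes mark exons and the dotted line separates peaks of 5 or more steps. NOTCH1 peaks of 5 or more steps stood on exons, up to 14 steps, except 1 of 7 steps across the donor of exon 18. RUNX1 carried a group of 5 to 9 steps inside introns and peaks of 6 to 15 steps in its last exon. Its peak of 18 steps lay in intron 3, which is 5'UTR there in other transcripts. The RUNX1 peak upstream of the canonical start is not drawn.

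GATA3 (chr10:8045378-8075198, plus strand), a zinc-finger factor of the T-cell lineage, held 2 peaks, both of 7 steps. One of 48 nt lay in the 5'UTR part of exon 2 with a fold enrichment of 2.30. The other, of 164 nt, lay in exon 3 over codons 154 to 208 of 444 with a fold enrichment of 2.27. It is printed whole as a CDS peak that touched no UTR, with 70.1% G and C and no UGUA.
GATA3 exon 3 peak, chr10:8058524-8058687, plus strand: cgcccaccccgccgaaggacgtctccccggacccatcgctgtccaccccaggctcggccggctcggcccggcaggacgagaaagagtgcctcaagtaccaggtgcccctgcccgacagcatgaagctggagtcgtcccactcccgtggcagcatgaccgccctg
The 3'UTR of GATA3 contained 10 UGUA in 1175 nt and no peak.

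MYB (chr6:135181308-135219173, plus strand), a transcription factor of immature blood cells, held 1 high and 1 low peak. The high one lay at the end of exon 11 (chr6:135198990-135199060), over codons 550 to 570 of 761. It reached 17 steps, the second highest of the 90, with a fold enrichment of 2.44. It covered the splice donor, with 61 nt in the exon and 10 nt in the intron. Its single UGUA straddled the exon border, with 1 base in the exon and 3 in the intron, so the window is shown for the overlap of motif and donor.
MYB exon 11 window, chr6:135199031-135199060, plus strand: actcaaaaggaaaatactgTGTAagtcttt
The low peak, of 3 steps, lay in intron 15. MYB contained 12 UGUA in its 3'UTR of 1192 nt, and no peak lay there.

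TCF7 (chr5:134114681-134151865, plus strand), the gene of the Wnt-responsive factor TCF-1, held 2 peaks. That in exon 3, over codons 132 to 147, had 9 steps and a fold enrichment of 2.51, and it too crossed a splice donor, with 9 nt in the intron. It is shown whole, donor included.
TCF7 exon 3 peak, chr5:134115988-134116042, plus strand: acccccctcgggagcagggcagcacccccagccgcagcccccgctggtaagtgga
The second peak had 15 steps and a fold enrichment of 2.10. It lay in exon 10 (chr5:134146346-134146421), in the 3'UTR of the canonical transcript and in CDS of others, 80 nt from the end of a coding transcript.

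BCL11B (chr14:99169287-99272197, minus strand), a zinc-finger factor and tumour suppressor of the T lineage, held 6 peaks. In its last exon 2 CDS peaks, of 7 and 10 steps with fold enrichments of 2.06 and 2.53, lay over codons 229 to 251 and 280 to 352 of 894. A 3'UTR peak of 11 steps with a fold enrichment of 2.39 followed. This 3'UTR, of 4864 nt, had 36 UGUA, or 7.40 per kb, but its one peak had none, and the nearest was 101 nt away. The remaining 3 peaks lay in intron 3 at 1 or 3 steps. The shorter CDS peak is shown as an example of a peak without UGUA.
BCL11B exon 4 peak, chr14:99176083-99176149, minus strand: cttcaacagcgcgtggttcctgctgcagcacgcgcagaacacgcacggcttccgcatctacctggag

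MYC, the oncogenic transcription factor (chr8:127735434-127742951, plus strand), held 1 peak, in CDS of exon 2, over codons 234 to 257 of 454, with an antisense gene, CASC11, at the same position. It reached 15 steps, which ranked 423 in the list, but its fold enrichment of 1.88 ranked 8361. Its 3'UTR, with 8 UGUA in 1993 nt, had no peak.

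BCL2 (chr18:63123346-63320128, minus strand) and LMO2 (chr11:33858576-33892076, minus strand), which encode the anti-apoptotic protein and a LIM-only partner of TAL1, held intron peaks of 1 or 2 steps only. Both BCL2 peaks were 363 nt long and lay in intron 2, the nearer of them 177616 nt from the canonical end. They carried 6 and 1 UGUA. The LMO2 peak, of 258 nt and 1 step, lay in intron 5 with 1 UGUA. The 3'UTR of BCL2, of 5279 nt, was the longest of the 10 and contained 32 UGUA without a peak.

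TAL1 (chr1:47216290-47232225, minus strand), a basic helix-loop-helix factor, had 25 UGUA in a 3'UTR of 3429 nt. The nearest peak of the list lay 562948 nt away in ATPAF1. TAL1 was short, at 15936 nt, and among protein-coding genes under 20 kb 17.7% held a peak, against 40.4% of those from 20 to 50 kb. MYC, shorter still at 7518 nt, held 1 peak, and the part of gene length was not tested.

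Across the 10 genes, assignment of peaks to regions depended on the transcripts used. With any annotated transcript and the 3'UTR taken first, 27 peaks (30.0%, 20.8 to 40.6) were in 3'UTRs, 2 in 5'UTRs, 6 in CDS, 1 in a noncoding exon and 54 (60.0%, 49.1 to 70.2) in introns. In the list, 30.0% of peaks in protein-coding genes were in 3'UTRs and 39.6% in introns. RUNX1 and NOTCH1 decided this comparison. Without RUNX1, 52.5% (36.1 to 68.5) of the 40 remaining peaks lay in 3'UTRs and 30.0% (16.6 to 46.5) in introns. Without both genes, 3 of 16 peaks (18.8%, 4.05 to 45.6) lay in 3'UTRs and 43.8% (19.8 to 70.1) in introns. However, 18 of the 27 also lay in CDS of another transcript, among them 15 NOTCH1 peaks that transcripts subject to nonsense-mediated decay turn into 3'UTR. By the canonical transcript 10 peaks (11.1%, 5.46 to 19.5) lay in the 3'UTR and 23 (25.6%, 16.9 to 35.8) in CDS, against 18.6% and 33.1% in the list. Genes with a 3'UTR peak were NOTCH1, MYB, RUNX1, BCL11B and TCF7, 5 of 10, against 14.1% of protein-coding genes. With the canonical transcript they were 4, without MYB, against 10.3%.

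Height and region moved together. All 36 peaks of 4 or fewer steps lay in introns, while 36 of the 54 higher peaks were exonic. In the list introns held 39.6% of all peaks in protein-coding genes and 8.15% of those of 5 or more steps. Height and region thus moved together there too, although low list peaks were not counted apart by region. Among the 54 higher peaks of the 10 genes 18 lay in introns (33.3%, 21.1 to 47.5), against that 8.15% in the list. RUNX1 accounted for 17 of them, and without RUNX1 the share was 3.45% (0.0873 to 17.8), or 1 of 29. The low peaks took 4 values of fold enrichment, 1.17, 1.39, 1.61 and 1.82, at 1, 2, 3 and 4 steps. They shared a p-value of 0.0469 and lay on a derived local background of 0.046 to 0.0513. This range is within the rounding of the deposited Score, so the low peaks cannot be told apart by background. On a common background the fold enrichment is fixed by the steps and adds nothing to them. In 24 of the 36 another peak of the gene started exactly 476 nt away, against 2 of the 54 higher ones. In the list 19.6% of all peaks in protein-coding genes and 3.30% of those of 5 or more steps had such a partner. The matching counts in the 10 genes were 26 of 90 and 2 of 54. List peaks of 4 or fewer steps were not counted apart, so the 24 of 36 has no list share beside it. The 26 peaks made 13 pairs, of which 10 had both members of equal length. RUNX1 held 9 pairs, NOTCH1 2, and BCL2 and BCL11B 1 each.

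Of the 54 higher peaks 6 (11.1%, 4.19 to 22.6) covered a splice site of the canonical transcript, against 27.4% (26.4 to 28.3) in the list. They were 5 donors, in NOTCH1 exons 12, 18 and 21, MYB exon 11 and TCF7 exon 3, and 1 acceptor, of RUNX1 exon 8. RUNX1 thus had 1 such peak among its 25 higher peaks, of which 17 lay in introns. The other genes had 5 among 29.

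The local background of a peak was derived from its Score and fold enrichment. It reached at least 0.9 for 6 of the 54 higher peaks, against 4.07% of those in the list, where the median was 0.145. They were the RUNX1 peak of 18 steps with 1.54, MYC with 1.35, the last-exon peak of TCF7 with 1.11, the stop codon peak of NOTCH1 with 1.00, the first 3'UTR peak of RUNX1 with 1.00 and MYB with 0.999. All 6 stood at 14 or more steps, which the formula favours, since background rises with Score, and 8 of the 90 peaks did so. Their fold enrichments, from 1.88 to 2.44, lay below those of the exon 5 peak of NOTCH1 and the CDS peak of RUNX1, on backgrounds of 0.144 and 0.251. The order of these genes therefore differed between Score and fold enrichment, with MYB at 267 and 4128 and TCF7 at 423 and 6779 in the list.

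**Figure D3:**
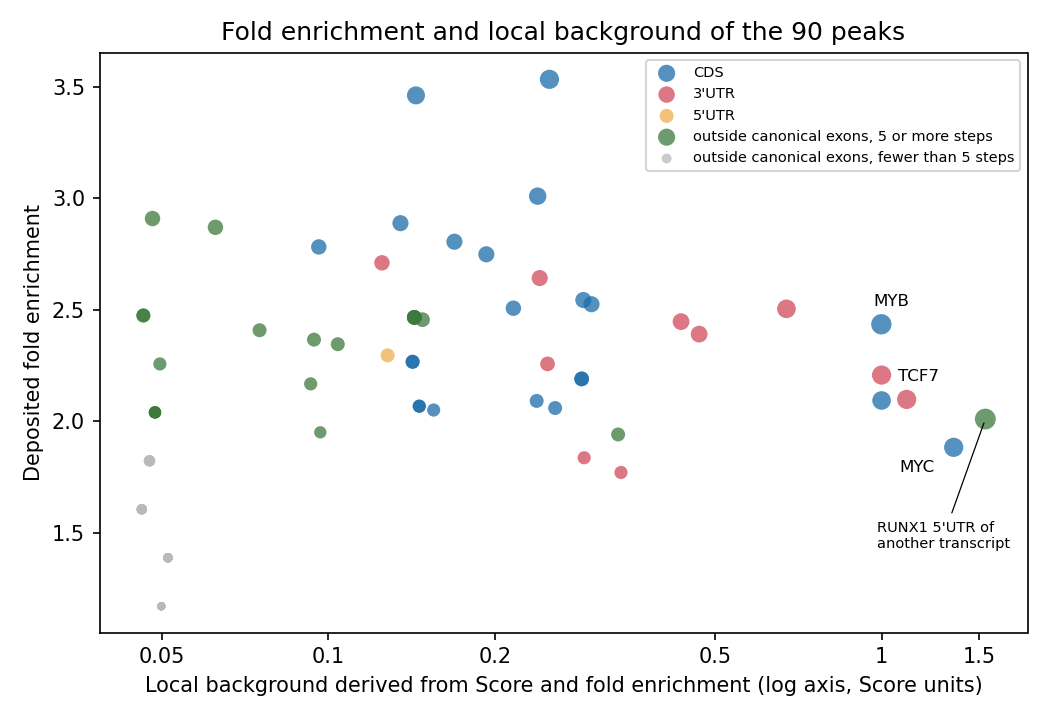
Fold enrichment (y axis) against the local background derived for each of the 90 peaks (x axis, log axis), with point area growing with the steps of Score and colours by region of the canonical transcript. Peaks with equal values overlap. The 4 lowest grey points hold the 36 peaks of 4 or fewer steps. The spread of these points along the x axis is within the rounding of Score. MYC, TCF7, MYB and the RUNX1 peak of 18 steps lie at the right.

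UGUA, searched as those letters on the gene strand, was present in 30 of the 90 peaks (33.3%, 23.7 to 44.1). The list share was 44.5%, of the 17893 peaks in protein-coding genes that were searched. The density was 3.68 per kb in the 90 peaks, against 4.29 per kb in the list. The median length was 119.5 nt, against 145 nt for all peaks in protein-coding genes. On the opposite strand 30 of the 90 peaks held UGUA as well. The higher peaks had it in 10 of 54 (18.5%, 9.25 to 31.4), against 26.8% of 8050 searched in the list. The lower, longer peaks had it in 20 of 36. The density was 1.95 per kb in the higher peaks, against 3.70 per kb in the list, and 5.04 per kb in the lower peaks. List peaks of 4 or fewer steps were not counted apart for UGUA, so the values of the lower peaks have no list share beside them. Among higher peaks RUNX1 had UGUA in 8 of 25, and the other genes had it in 2 of 29, one in NOTCH1 and one in MYB. No CDS peak of NOTCH1 had UGUA, in a CDS with 7 UGUA in 7668 nt.

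The canonical 3'UTRs of the 10 genes summed to 26591 nt with 167 UGUA. Peaks covered 853 nt (3.21%) of them and held 3 UGUA (1.80%, 0.372 to 5.16), 1 in NOTCH1 and 2 in RUNX1. The density was 6.28 per kb over these 3'UTRs and 3.52 per kb in the parts under peaks. In 8 of the 10 genes at least 1 UGUA lay within the last 100 nt, the exceptions being BCL2 and GATA3. No peak had its midpoint within 100 nt of a canonical end (0%, interval up to 4.02%), where 0.643% of peaks in protein-coding genes lay. Of the 90 peaks 3 (3.33%, 0.693 to 9.43) lay within that distance of the end of any annotated transcript, 2 in RUNX1 and 1 in TCF7, against 11.2% in the list.

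**Figure D4:**
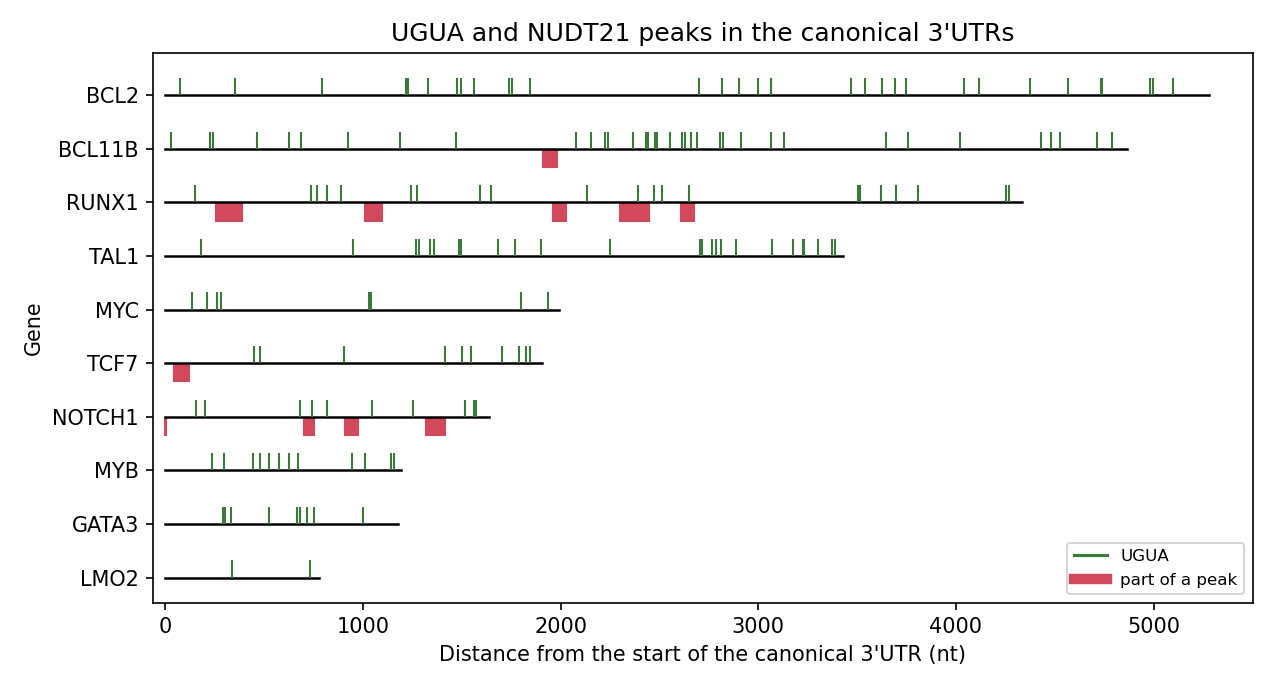
Positions of UGUA (green) and of the parts covered by a peak (red) along the canonical 3'UTR of each gene, as distance in nt from its start (x axis). In all, 3 of 167 UGUA lay under a peak, and MYC, MYB, BCL2, GATA3, TAL1 and LMO2 had no peak in this region.

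Related genes were compiled in 4 lists and are given as counts, beside the 33.4% of all protein-coding genes with a peak and the 14.4% with a peak of 5 or more steps. In the Notch pathway 9 of 20 genes held a peak, with 13 in the receptor NOTCH2 and 8 in ADAM10, the protease that cleaves Notch, and 5 genes had one of 5 or more steps. The ligands JAG1, JAG2 and DLL1 and the target HES1 were among the 11 without a peak. Of T-cell transcription factors and partners 14 of 20 held a peak, 12 of them of 5 or more steps, for 102 peaks in all. ETV6 had 21, IKZF1 and SATB1 16 each, and TCF12 and LEF1 12 each. Of these peaks 5, 4, 10, 2 and 7, in that order, reached 5 or more steps. LYL1, LMO1, TLX1, TLX3, HHEX and MEF2C had none. Of MYC partners and the BCL2 family 9 of 12 held a peak and 4 had one of 5 or more steps. MAX, which dimerizes with MYC, and MGA, another partner of MAX, had 6 each, but the MGA peaks did not exceed 4 steps. Of T-ALL tumour suppressors and signalling genes 13 of 20 held a peak and 9 had one of 5 or more steps. CDKN1B, a cell-cycle inhibitor, and PIK3R1, a regulatory subunit of PI3K, had 8 each, all of 5 or more steps, whereas CDKN2A and IL7R were among those with none.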

How the data were processed

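The authors trimmed the reads with fastp, removed duplicates by molecular identifier, removed ribosomal RNA reads, mapped the rest to hg38 and called peaks with MACS2 at a stated q-value limit of 0.05, which the deposited FDR does not reflect. The aligner and the use of the input as control are not given in the sources used here. The deposited list, 1 file of the antibody library, gives position, Score, fold enrichment, p-value and FDR of each peak, with no strand and no read totals, so depth was unknown. The authors' fold enrichment is a ratio over local background, and the deposited p-value and FDR were used only to describe and filter. The unit of the deposited Score, treated as a signal, is not stated. Its steps of 0.2278, fitted to the values (largest residual 0.0076), and the background, (Score + 1) / fold enrichment - 1, are inferences.

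Midpoints were assigned with GENCODE 44 over all transcripts, where a 3'UTR came before a 5'UTR, then CDS, then noncoding exons and last introns, and again with the canonical transcript. Codons, splice sites, UGUA and AAUAAA were read from the hg38 reference. The spacing of 476 nt was the most frequent distance between starts of successive peaks in the list. A UGUA counted when all 4 bases lay in the peak. Shares have exact 95% intervals. For text, each exonic peak, each peak of 5 or more steps and the peak of highest fold enrichment per gene were eligible to be named, and the rest were given by range. The members, related gene lists and settings were chosen with earlier results of these data known. The alternatives were FDR under 0.05, 5 or more steps, fold enrichment of at least 2, merging within 100 nt, any overlap, peaks in another gene left out, CDS first, the canonical transcript, and for UGUA the central 100 nt, 50 nt extension and the opposite strand. Omission of nonsense-mediated decay transcripts and of RUNX1 was added later. Counting was tested on simulated data. Sequences were read with pysam 0.24.0, tables with pandas 2.3.3 and numpy 2.4.6 under Python 3.11.15, intervals came from scipy 1.17.1, and figures from matplotlib 3.10.9.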

Additional observations from a re-analysis of the deposited data

How the results depend on the processing

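An FDR under 0.05 left 0 peaks, 0 genes, 0 3'UTR peaks and 0 intron peaks, and gave no UGUA share or median fold enrichment. With 5 or more steps, 54 of the 90 peaks, 18 of 54 intron peaks and a UGUA share of 18.5% instead of 33.3% were left, and the median fold enrichment rose from 2.04 to 2.36. With a fold enrichment of at least 2 these values were 49, 17, 16.3% and 2.41. The genes with a peak then fell from 9 to 6, and with peaks in another gene left out to 8. MYC was lost under both settings. Instead of 27 3'UTR peaks there were 9 with CDS in precedence, 10 with the canonical transcript and 10 without nonsense-mediated decay transcripts. Extension of all 90 peaks by 50 nt raised the UGUA share from 33.3% to 48.9%. Without RUNX1 there were 40 peaks, 12 in introns, and a UGUA share of 22.5%. Of 49 alternative values 30 stayed within 1.5 times the main count or within its interval. A single library with unknown depth left no measure of spread between replicates, and the absence of a listed peak does not show absence of binding.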

Other observations

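The 23 CDS peaks of 5 or more steps had a median of 67.6% G and C (35.2 to 74.5), the lowest being that of MYB, and 2 held UGUA. The 10 3'UTR peaks had a median of 42.5% (28.2 to 71.2), and 3 held UGUA. These medians mix genes, with 16 CDS peaks from NOTCH1 and 5 3'UTR peaks from RUNX1, and the 3'UTR peaks included 2 of NOTCH1 with 71.2% and 68.4% and 1 of TCF7 with 63.2%. The coding sequences themselves had 0.00 UGUA per kb in GATA3 and TAL1, 0.693 in RUNX1, 0.745 in BCL11B, 0.913 in NOTCH1, 1.39 in BCL2, 1.47 in MYC, 2.60 in TCF7, 2.62 in MYB and 2.92 in LMO2. The median fold enrichment was 2.44 for the CDS and 2.32 for the 3'UTR peaks.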
